A study of Mus musculus with 6 samples.

Results

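Fibro-adipogenic progenitors and satellite cells are the main resident precursor cells of skeletal muscle. They are told apart in cell sorts by antigens on their surface. Fibro-adipogenic progenitors, the source of scar and of fat within muscle, carry the receptor PDGFRA and the antigen Sca-1, the product of Ly6a. Satellite cells, the muscle stem cells, lack both and carry VCAM1 and NCAM1. CD34, CD44 and THY1 are shared by several cell types. The 10 genes described here were taken by symbol from the deposited gene counts: Pdgfra, Pdgfrb, Ly6a, Cd34, Thy1, Dpt, Pi16, Vcam1, Ncam1 and Cd44. All 10 were found among its 22272 distinct symbols, and 9 of them were among the 12166 genes with enough reads to be tested. Thy1 was not. Dpt and Pi16 mark fibroblasts but encode secreted proteins rather than receptors.

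All 6 samples were C2C12 cells, a mouse line of myoblasts (dividing muscle precursors), taken undifferentiated at day 0. In 3 samples the cells had GFP and are labelled wild type, and in 3 samples they overexpressed ChREBP-beta, a short isoform of the glucose-responsive transcription factor encoded by Mlxipl. The sources used here do not give the vector, promoter or expression time, nor whether replicates came from separate cultures. The p-values therefore reflect only how far these samples spread, and that spread may be technical. In a culture of this kind, fewer cells of a type and less RNA per cell cannot be told apart.

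Libraries held 17600238 to 19163834 deposited counts. Mlxipl, the overexpressed gene, lay between 0.501 and 0.719 CPM with GFP and between 215 and 222 CPM with ChREBP-beta, which fits the labels of all 6 libraries. CPM here are counts scaled to a common library size. RNA of other tissues was read in some libraries and not others. The summed level of 6 lung epithelium genes was 0.837 CPM in GFP replicate 1 and 72.7 to 137 CPM in the other 5 libraries. The 6 liver genes summed to 0.209 and 0.0553 CPM in GFP replicates 1 and 2 and to 14.5 to 23.8 CPM in the other 4. The 5 red blood cell genes lay between 3.35 and 11.02 CPM. GFP replicate 1 also held transcripts of thymocytes, the immature T cells.

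Of the 9 tested markers, 6 were higher and 3 lower with ChREBP-beta, and none was left uncalled (edgeR quasi-likelihood test, calls at 0.05 after adjustment by Benjamini-Hochberg). The same test called 58.7% of all tested genes, 29.5% higher and 29.3% lower, so a call alone does not set these genes apart. Libraries of the 2 groups did not overlap for any of the 9, against 63.2% of all tested genes. Pi16 entered the test through its ChREBP-beta libraries, since 1 of 3 GFP libraries reached the minimum level, so this count is no support of its own. The genes that rose were Dpt, Pi16, Pdgfrb, Pdgfra, Ly6a and Cd44, and those that fell were Ncam1, Vcam1 and Cd34. At least 2-fold changes were seen in 3 markers, Dpt and Pi16 upward and Ncam1 downward, where 4.06% of tested genes rose and 7.42% fell by that much. The median log2 fold change of the 9 was 0.59, beside -0.004 for all tested genes.

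**Figure D1:**
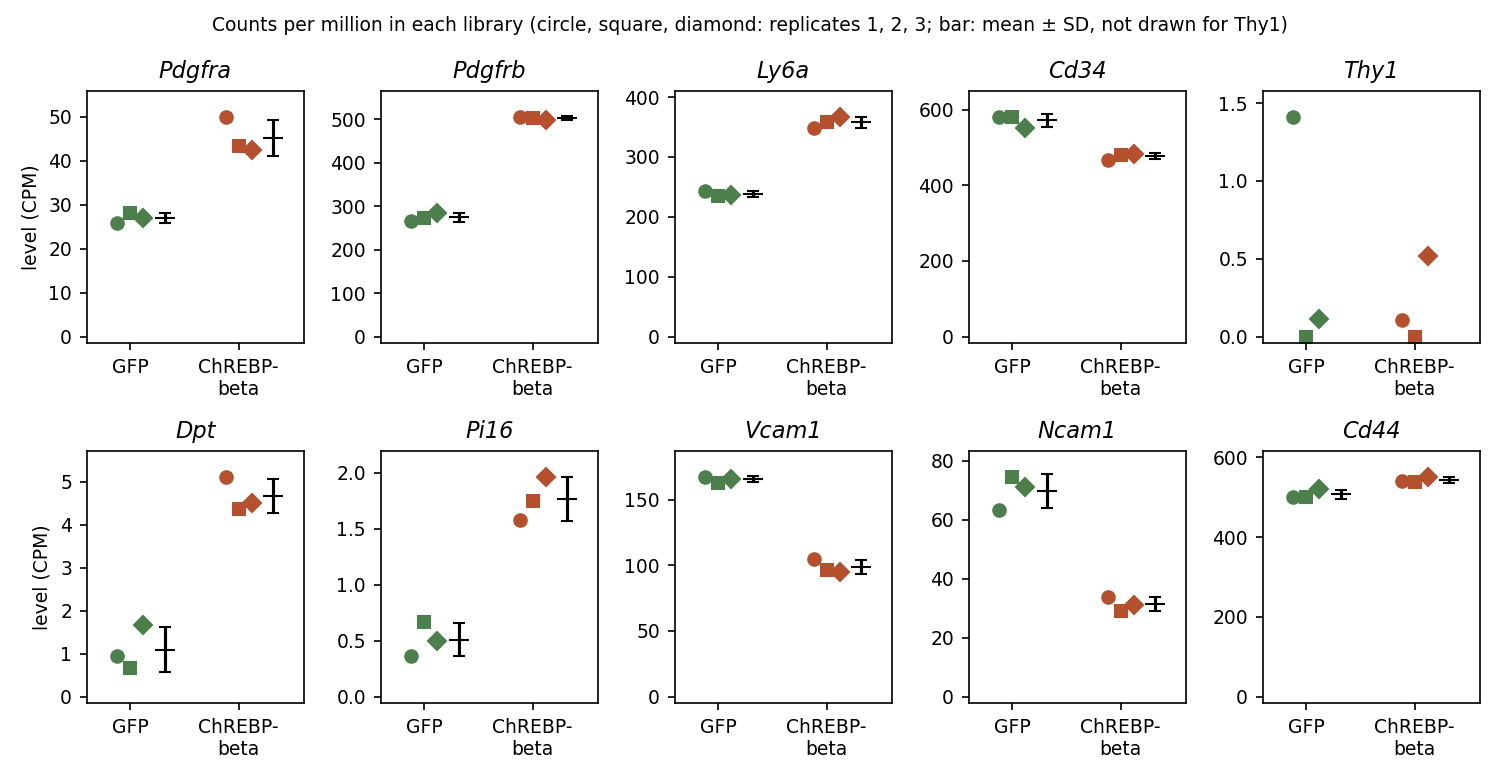
Level of each marker in CPM (vertical axes, from 0, a separate scale for each gene) in the 3 GFP and 3 ChREBP-beta libraries, with symbols for replicates 1 to 3 and bars for mean ± SD. The groups are separate for every gene except Thy1, where GFP replicate 1 stands at 1.41 CPM and the other libraries at 0 to 0.520 CPM.

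Promoter windows were listed for 5 of the markers, Pdgfra, Cd34, Dpt, Pi16 and Cd44 (RefSeq, GRCm38.p6, 250 bases before to 50 after the gene start). Windows for Pdgfrb, Ly6a, Thy1, Vcam1 and Ncam1 were not used here. The 250 bases before the RefSeq start are shown for 2 genes that rose and 1 that fell, because ChREBP and the myogenic factors both bind E-boxes, short motifs of the form CANNTG. Capitals mark each match to CANNTG. The stretches lie on the plus strand at chr1:164796413-164796662 for Dpt, chr5:75152001-75152250 for Pdgfra and chr1:194938571-194938820 for Cd34.
Dpt: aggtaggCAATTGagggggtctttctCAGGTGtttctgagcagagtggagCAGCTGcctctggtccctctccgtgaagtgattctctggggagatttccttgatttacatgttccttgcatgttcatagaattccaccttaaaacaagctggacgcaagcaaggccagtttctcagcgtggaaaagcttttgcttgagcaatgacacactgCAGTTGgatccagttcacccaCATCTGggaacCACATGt
Pdgfra: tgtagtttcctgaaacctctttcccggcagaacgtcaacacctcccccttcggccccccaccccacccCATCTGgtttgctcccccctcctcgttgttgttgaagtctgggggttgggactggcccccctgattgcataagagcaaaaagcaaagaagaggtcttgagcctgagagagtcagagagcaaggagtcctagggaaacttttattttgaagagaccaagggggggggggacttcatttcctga
Cd34: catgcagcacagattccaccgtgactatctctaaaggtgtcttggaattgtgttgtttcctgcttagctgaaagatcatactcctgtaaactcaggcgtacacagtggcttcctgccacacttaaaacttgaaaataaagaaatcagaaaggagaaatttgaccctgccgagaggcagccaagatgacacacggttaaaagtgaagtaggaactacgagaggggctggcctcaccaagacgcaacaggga
The window of Dpt held 7 matches to CANNTG over its 300 bases, 6 of them in the stretch shown, and 2 of the 7 read CAGCTG. GENCODE starts Dpt upstream of RefSeq, so the last 19 bases shown, with the last 2 matches, lie in its first exon there, as do the last 2 bases shown for Cd34. Of 32817 windows of the same length, 72.3% held at least 1 CANNTG and 0.177% held 7 or more. The cut-off of 7 was taken from Dpt, which had the most matches of the 5 windows, so this share is a description only. Pdgfra had 2 matches, 1 of them in the stretch shown, Pi16 had 1, also of the form CAGCTG, and Cd34 and Cd44 had 0. GENCODE starts Pi16 at 29317680, upstream of its whole RefSeq window (29318632 to 29318931). The form CACGTG, the core of the carbohydrate response element, was in 0 of the 5 windows on either strand, and 7.15% of all windows hold it. CAGCTG and CACGTG are both counted within CANNTG, and 16.3% of all windows hold CAGCTG. A match describes these letters only and shows no binding.

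PDGF receptors are tyrosine kinases at the surface of mesenchymal cells. PDGFRA marks fibro-adipogenic progenitors, whereas PDGFRB is also carried by the mural cells around vessels. Pdgfrb lies on the plus strand of chromosome 18 (61045150 to 61085061; GRCm38, as for all positions here). Its GFP libraries held 265, 272 and 284 CPM, in order of replicate number, and its ChREBP-beta libraries 505, 504 and 497 CPM. Every ChREBP-beta library stood well above every GFP library, with little spread within a group. The rise was 1.83-fold (95% interval 1.76 to 1.91; log2 fold change 0.87, SE 0.029, edgeR adjusted p = 3.48e-18). Pdgfra (chromosome 5, 75152292 to 75198215, plus strand) was less abundant, at 25.9, 28.1 and 26.9 CPM with GFP and 50.03, 43.4 and 42.4 CPM with ChREBP-beta. Its rise was 1.68-fold (95% interval 1.52 to 1.85; edgeR adjusted p = 1.11e-09). ChREBP-beta replicate 1 was the highest library. The intervals of the 2 receptors' folds overlap. Per base of transcript, Pdgfrb exceeded Pdgfra 12.2- to 13.3-fold in the GFP libraries and 12.8- to 14.8-fold in the ChREBP-beta libraries, so the balance of the receptors overlapped between the groups. Over the union of annotated exons the ratio was 17.7 to 19.3 and 18.5 to 21.4, again overlapping.

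The ligands of these receptors changed in both directions. Pdgfc, whose product binds PDGFRA, was read at 4.50, 4.64 and 6.29 CPM with GFP and at 34.4, 41.5 and 42.8 CPM with ChREBP-beta, a 7.70-fold rise (edgeR adjusted p = 4.08e-17). Pdgfb, the main ligand of PDGFRB, went from 5.15 ± 0.186 to 11.02 ± 1.06 CPM (SD, n = 3), a 2.14-fold rise by edgeR (adjusted p = 9.48e-08). Pdgfa was 1.18-fold lower (edgeR adjusted p = 0.00126), and Pdgfd had too few counts to be tested. Of the 3 tested ligands, 2 thus rose and 1 fell.

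Genes of mural cells differed in direction. Cspg4, which encodes the NG2 proteoglycan, rose with Pdgfrb, from 87.1 to 89.7 CPM with GFP to 159 to 164 CPM with ChREBP-beta (edgeR adjusted p = 1.29e-16). Rgs5, a defining mural gene with too few counts to be tested, lay the other way, with 6, 9 and 13 counts with GFP and 4, 2 and 4 with ChREBP-beta. Higd1b was at 0 in every library. The potassium channel genes Abcc9 and Kcnj8 were called higher, at 0.223 CPM or less with GFP and 0.751 to 1.63 CPM with ChREBP-beta, but both reached the minimum level of the test, 0.549 CPM, only in ChREBP-beta libraries. The calls of 3 higher among 3 tested, beside 29.5% of all tested genes, are therefore no support of their own. The summed level of the list, 87.9 to 90.2 CPM with GFP and 161 to 167 CPM with ChREBP-beta, came nearly all from Cspg4. The part of mural genes in the Pdgfrb result was not tested.

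Ly6a encodes Sca-1, a small protein tethered to the membrane by a lipid anchor (chromosome 15, 74994877 to 74998031, minus strand). Its level was 243, 234 and 236 CPM with GFP and 348, 358 and 367 CPM with ChREBP-beta. The groups were clearly separate, and the libraries within each differed by a few percent. The rise was 1.504-fold (95% interval 1.44 to 1.57; edgeR adjusted p = 1.68e-14). In 3 libraries the deposited Ly6a count was not whole, as where reads are divided between genes. How many reads were divided cannot be read from the counts, so its value is uncertain to that extent.

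The relatives and neighbours of Ly6a were examined next. In a chosen list of 12 genes of the Ly6 and uPAR family, which is not the whole family, 6 were tested, of which 4 rose and 2 fell (median log2 fold change 0.54). Ly6c1 rose 2.14-fold from 79.5 ± 1.33 to 170 ± 4.80 CPM (SD, n = 3; adjusted p = 2.47e-18 by edgeR). Its counts include split reads in each of the 6 libraries, and it has a close copy, Ly6c2, so both values are uncertain. Ly6e rose from 504 to 632 CPM (edgeR adjusted p = 5.64e-10), and Plaur, the urokinase receptor gene on another chromosome, rose 1.68-fold (edgeR adjusted p = 9.79e-12). Lypd6, which reached the minimum level only with GFP, fell 13.3-fold from a mean of 2.53 to 0.183 CPM, and the complement inhibitor gene Cd59a fell 2.73-fold (edgeR adjusted p = 9.09e-07 and 1.95e-06). Ly6d, Ly6h, Ly6k, Lypd1, Lypd6b and Gpihbp1 were not tested. In the stretch of chromosome 15 within 500 kb of Ly6a, a window chosen after the values were seen, 9 other genes were tested. Of these 9, 5 were higher, 2 lower and 2 not called, beside 29.5% higher and 29.3% lower among all tested genes. Ly6e, Ly6c1, Ly6c2 and Ly6f, the 4 of the 9 with Ly6 symbols, were all higher, and so was Adgrb1, from 0.0553 to 7.01 CPM. The GFP means of Adgrb1 and Ly6f lay below the minimum level of the test, 0.549 CPM, so this count is no support of its own. Arc and Lynx1 were lower, Arc falling from 14.5 to 5.74 CPM and Lynx1 from 59.2 to 45.6 CPM. Lynx1 too is a gene of the Ly6 and uPAR family, so its members in this stretch did not all rise.

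Cd34 encodes a sialomucin, a heavily glycosylated surface protein of progenitor cells (chromosome 1, 194938819 to 194961279, plus strand). It was read at 581, 581 and 553 CPM with GFP and at 468, 481 and 482 CPM with ChREBP-beta. The lowest GFP library was still above the highest ChREBP-beta library. The fall was 1.20-fold (95% interval 1.15 to 1.249; edgeR adjusted p = 2.08e-08), and 53.8% of tested genes changed by less on the log2 scale. The transcripts of Sca-1 and CD34, antigens often gated together to sort fibro-adipogenic progenitors, thus moved in opposite directions. Surface protein was not measured. The ratio of Cd34 to Ly6a per base of transcript was 0.930, 0.966 and 0.913 with GFP and 0.522, 0.523 and 0.511 with ChREBP-beta. Over the union of annotated exons it was 0.388 to 0.410 with GFP and 0.217 to 0.222 with ChREBP-beta.

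Dpt encodes dermatopontin, a small matrix protein that helps collagen fibrils form (chromosome 1, 164796644 to 164824266, plus strand). Its counts were 18, 12 and 30 with GFP and 94, 82 and 78 with ChREBP-beta, or 0.941, 0.663 and 1.67 CPM and 5.11, 4.36 and 4.51 CPM. GFP replicate 3 was the highest of its group and still below every ChREBP-beta library. The rise was 4.26-fold, with a wide 95% interval of 2.85 to 6.37 (edgeR adjusted p = 7.08e-07). Pi16 encodes a peptidase inhibitor that marks fibroblasts of the outer connective tissue (chromosome 17, 29317680 to 29330593, plus strand). Its counts were 7, 12 and 9 with GFP and 29, 33 and 34 with ChREBP-beta, or 0.366, 0.663 and 0.501 CPM and 1.58, 1.75 and 1.96 CPM. All 3 ChREBP-beta libraries held more than double the counts of any GFP library. The rise was 3.44-fold (95% interval 2.001 to 5.90; edgeR adjusted p = 2.69e-04). Both genes stayed rare, and 12.9% of tested genes had a lower mean level than Dpt and 5.84% a lower one than Pi16. GFP replicate 1, with 0.837 CPM of lung genes, and GFP replicate 2, with 137 CPM, both held fewer counts of Dpt and Pi16 than any ChREBP-beta library. Liver genes did move with Dpt: they summed to 0.209 and 0.0553 CPM in GFP replicates 1 and 2, to 23.8 CPM in GFP replicate 3, which had the most Dpt of its group, and to 14.5 to 20.1 CPM with ChREBP-beta. GFP replicate 3 had more liver RNA than any ChREBP-beta library, with 30 counts of Dpt against 78 to 94. The part of lung or liver RNA in the Dpt and Pi16 results was not tested.

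**Figure D2:**
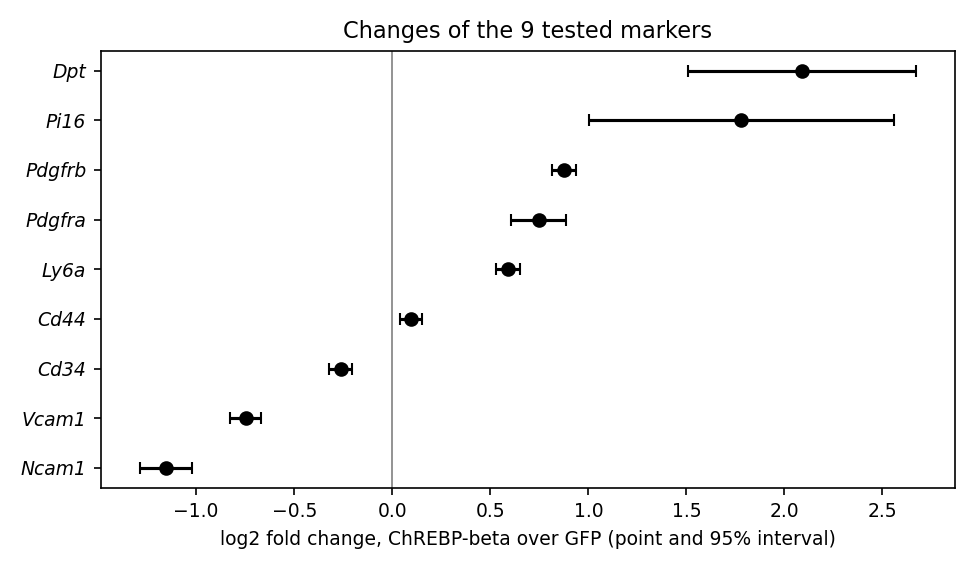
Log2 fold change of ChREBP-beta over GFP (horizontal axis) for the 9 tested markers, with points for the edgeR estimate and lines for its 95% interval. Dpt and Pi16 have the highest values and the widest intervals, Cd44 lies close to 0, and Cd34, Vcam1 and Ncam1 lie below 0.

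VCAM1 is an immunoglobulin-family adhesion protein by which satellite cells are sorted, and its classical partner is the integrin of the chains encoded by Itga4 and Itgb1. Vcam1 (chromosome 3, 116109949 to 116129688, minus strand) was read at 167, 163 and 166 CPM with GFP and at 105, 96.3 and 94.7 CPM with ChREBP-beta. The GFP libraries lay within a few CPM of each other and far above the other group. The fall was 1.68-fold (95% interval 1.59 to 1.77; edgeR adjusted p = 1.95e-14). Itgb1 rose 1.36-fold from 861 ± 3.15 to 1169 ± 18.2 CPM (SD, n = 3; adjusted p = 1.77e-13 by edgeR), while Itga4 had too few counts to be tested.

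NCAM1 is an adhesion molecule of nerve and of myoblasts, and sialic acid chains added by the enzymes of St8sia2 and St8sia4 weaken its grip. Ncam1 (chromosome 9, 49502136 to 49798925, minus strand) was read at 63.4, 74.6 and 71.3 CPM with GFP and at 33.9, 29.2 and 30.9 CPM with ChREBP-beta. The 2 groups were far apart, and GFP replicate 1 was the lowest of its group. Ncam1 fell 2.22-fold (95% interval 2.03 to 2.44; edgeR adjusted p = 1.20e-13), the steepest fall among the 9 tested markers. St8sia4 fell with it, from 7.90, 7.57 and 7.02 CPM to 0.217, 0.531 and 0.173 CPM, or 23.6-fold (edgeR adjusted p = 1.53e-12), and it too reached the minimum level only with GFP. St8sia2 was not tested, and it was read at 0.418 to 0.940 CPM with GFP and had no count with ChREBP-beta.

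CD44 is the main receptor for hyaluronan, the long sugar polymer of the matrix, and it is tied to actin by ezrin, radixin and moesin. Cd44 (chromosome 2, 102811141 to 102901665, minus strand) was read at 501, 501 and 520 CPM with GFP and at 540, 537 and 551 CPM with ChREBP-beta. The groups did not overlap, but they lay close together. The rise was 1.07-fold (95% interval 1.03 to 1.11; edgeR adjusted p = 0.00393), and it was not called when libraries were scaled by their size alone (edgeR adjusted p = 0.116). Only 23.4% of tested genes changed by less on the log2 scale. Several of its partners changed more. Has2, which makes hyaluronan, fell 1.62-fold from 217 ± 1.24 to 134 ± 8.50 CPM, and Ezr, which encodes ezrin, fell 1.93-fold from 151 ± 1.87 to 78.4 ± 2.86 CPM (SD, n = 3; adjusted p = 5.57e-14 and 9.05e-17 by edgeR). Msn, which encodes moesin, rose 1.39-fold from 752 ± 10.1 to 1047 ± 15.1 CPM (SD, n = 3; adjusted p = 5.68e-14 by edgeR). Over the whole list of 18 partners of the markers, 16 were tested, with 6 higher, 6 lower, 4 not called and a median log2 fold change of 0.08.

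THY1 is a lipid-anchored surface protein of fibroblasts, nerve cells and T cells (Thy1, chromosome 9, 44043384 to 44048579, plus strand). Its counts were 27, 0 and 2 in GFP replicates 1 to 3 and 2, 0 and 9 in ChREBP-beta replicates 1 to 3. GFP replicate 1 held most of them, the groups overlapped, and no fold change is given. Without GFP replicate 1, the GFP group held 2 counts and the ChREBP-beta group 11. In the fit without a filter on low counts, edgeR gave Thy1 an adjusted p of 0.164. The same library held transcripts of thymocytes, which carry THY1. A list of 12 thymocyte genes, written after the data were seen, summed to 294 counts in GFP replicate 1 and to 6 to 26 counts in the other 5 libraries. Among them Rag1, the recombinase of antigen receptor genes, had 114 counts in GFP replicate 1 and at most 2 elsewhere. Dntt had 38 and at most 1, and Cd8a had 37 and at most 3. Ptcra was at 0 throughout. In ChREBP-beta replicate 3, with 9 counts of Thy1, the thymocyte genes summed to 14. The part of thymocyte RNA in the Thy1 counts was not tested.

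**Figure D3:**
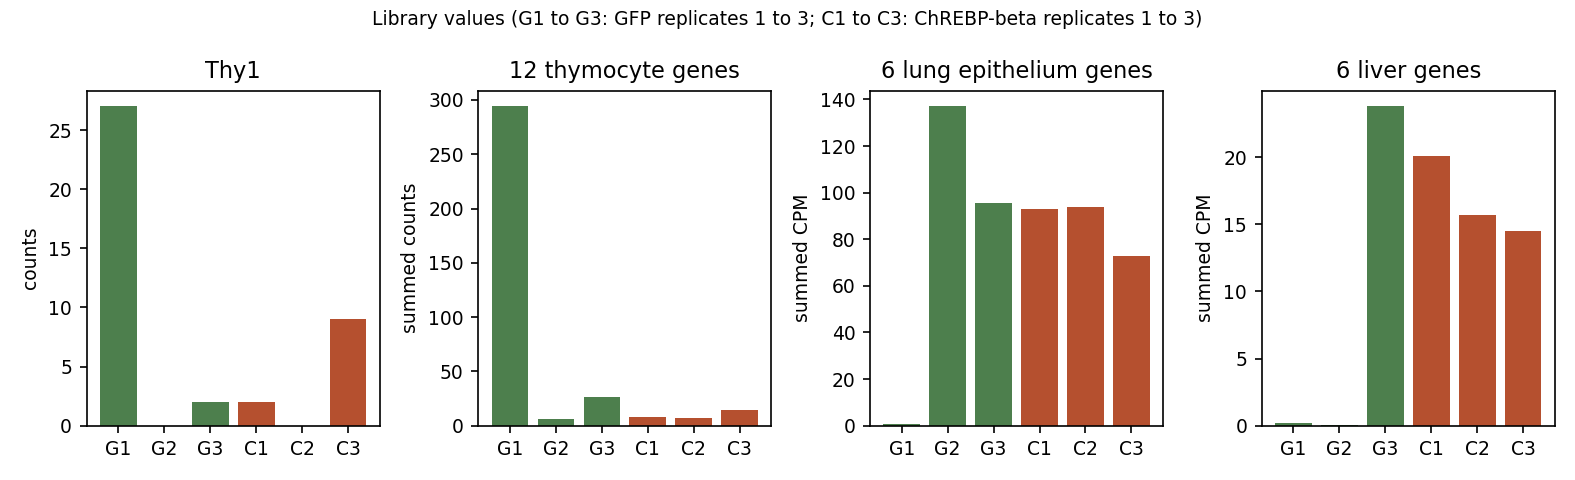
Counts of Thy1, summed counts of 12 thymocyte genes, and summed CPM of 6 lung epithelium and 6 liver genes (vertical axes, bars from 0) in the 6 libraries. GFP replicate 1 (G1) has the tallest bars for Thy1 and the thymocyte genes, with 27 and 294 counts, and nearly none for lung and liver.

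Levels of different genes were compared per kilobase of transcript. With GFP, Ly6a led at 249 ± 5.10 CPM per kilobase, followed by Cd34 at 233 ± 6.67, Cd44 at 90.4 ± 2.0, Pdgfrb at 50.7 ± 1.73, Vcam1 at 47.7 ± 0.641, Ncam1 at 11.5 ± 0.947 and Pdgfra at 3.95 ± 0.165 (SD, n = 3). Dpt stood at 0.633 ± 0.302 and Pi16 at 0.128 ± 0.0373 CPM per kilobase (SD, n = 3), and Thy1, at 0 to 0.814, overlapped both. With ChREBP-beta, Ly6a stood at 375 ± 9.73 and Cd34 at 194 ± 3.33 CPM per kilobase (SD, n = 3). Cd44 and Pdgfrb were close, at 96.7 ± 1.32 and 92.8 ± 0.798 CPM per kilobase (SD, n = 3), though their libraries did not overlap. Vcam1 stood at 28.4 ± 1.59, Pdgfra at 6.62 ± 0.607, Ncam1 at 5.18 ± 0.398, Dpt at 2.70 ± 0.232 and Pi16 at 0.442 ± 0.0486 CPM per kilobase (SD, n = 3). Pdgfra and Ncam1 thus changed places between the groups. The order depends on the transcript chosen: over the union of all annotated exons, Pdgfrb ranked 2, Cd44 3 and Cd34 4 with ChREBP-beta. The cells so carried transcripts of both marker sets, with Ly6a exceeding Vcam1 5.15- to 5.28-fold per base of transcript in the GFP libraries and 12.05- to 14.1-fold in the ChREBP-beta libraries. Over the union of exons these ratios were 10.4 to 10.7 and 24.4 to 28.5, so their size depends on the length used, while the ChREBP-beta libraries lay higher by both.

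Other genes of fibro-adipogenic cells moved in both directions. Of 22 listed, 16 were tested, with 4 higher, 8 lower, 4 not called and a median log2 fold change of -0.12. Fbln2, a matrix gene, rose 2.40-fold from 347 ± 9.68 to 832 ± 18.9 CPM (SD, n = 3; adjusted p = 1.42e-21 by edgeR). Twist2, a mesenchymal transcription factor gene, rose 2.53-fold, and Cd248, which encodes the stromal antigen endosialin, rose 1.99-fold (edgeR adjusted p = 1.55e-13 and 3.86e-12). Cxcl12 was the other member that rose. Mme, which encodes a surface peptidase, fell from 11.98 to 3.73 CPM, and Dcn, the proteoglycan decorin, fell 3.90-fold from 8.29 to 2.11 CPM (edgeR adjusted p = 1.84e-10 and 2.19e-09). Osr1, a transcription factor gene of embryonic fibro-adipogenic progenitors chosen here after its values were seen, was 3.08-fold lower. Lum, Osr2, Fap, Hic1, Gdf10 and Dpp4 were not tested, each at under 1 CPM in every library.

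Other satellite cell genes mostly fell, together with Vcam1 and Ncam1. Of 19 listed, 14 were tested, with 12 lower, 1 higher, 1 not called and a median log2 fold change of -1.32. Beside it, 29.3% of all tested genes were lower. Of the 12, Pax7, Cxcr4, Fgfr4 and Hey1 reached the minimum level only in GFP libraries, so they could enter the test only by being higher there, and the count and median are a description with no support of their own. Of all 12166 genes tested, 187 likewise reached the minimum level in no ChREBP-beta library, and 2.42% reached it in 1 group only, whichever that was. Myod1, the myogenic master factor, fell from 30.9, 31.8 and 29.5 CPM to 0.924, 1.59 and 1.16 CPM (24.9-fold), and Cdh15, the muscle cadherin, fell 16.8-fold (edgeR adjusted p = 1.93e-19 and 1.40e-16). Surface genes of satellite cells fell by very different amounts. The chemokine receptor gene Cxcr4, named here after its values were seen, fell 9.68-fold (edgeR adjusted p = 2.62e-08). Met, the receptor of hepatocyte growth factor, fell 2.18-fold from 84.1 ± 4.74 to 38.6 ± 1.46 CPM, and Itga7, the laminin-binding integrin, fell 2.07-fold from 71.1 ± 4.65 to 34.3 ± 0.319 CPM (SD, n = 3; adjusted p = 3.09e-15 and 4.43e-14 by edgeR). Cd82, a tetraspanin, fell 1.59-fold (edgeR adjusted p = 9.67e-13). Sdc3, a syndecan, was the member that rose. Fgfr4 had 61 counts over the GFP group, while ChREBP-beta had 0. Taking 3 counts per group as the floor, it was at least 20.1-fold lower, and placing it at that bound left the list's median at -1.32. Pax3, Calcr, Chrdl2, Heyl and Erbb3 were not tested, and Calcr, the calcitonin receptor gene of quiescent satellite cells, was at 0 in every library.

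**Figure D4:**
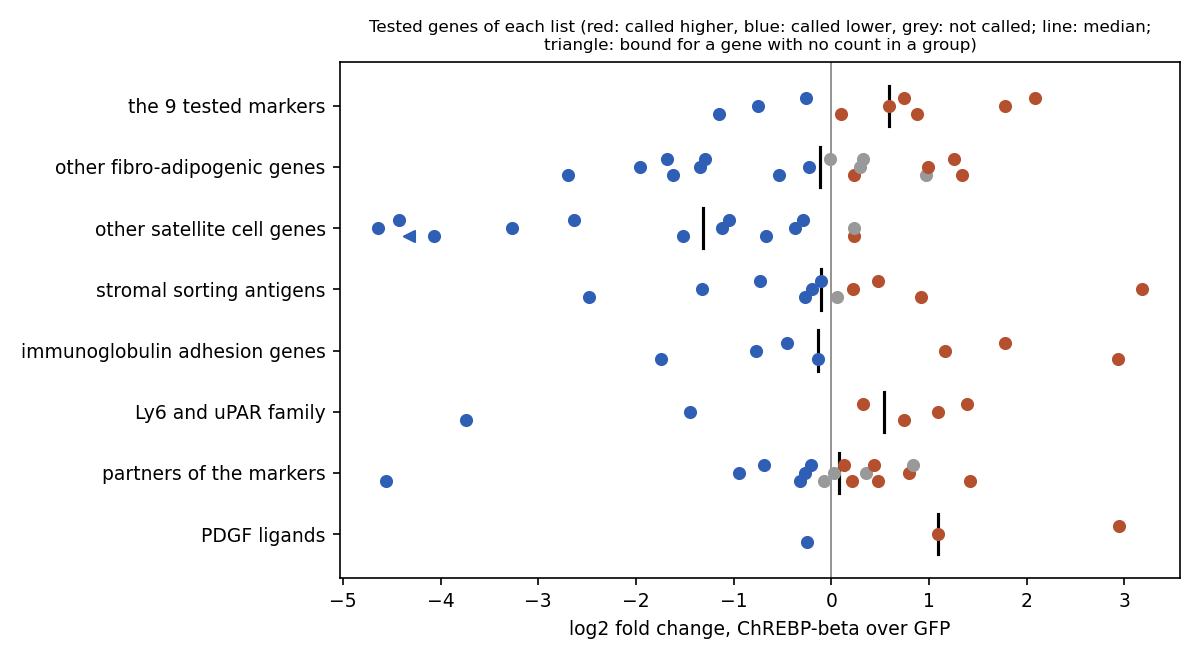
Log2 fold change of ChREBP-beta over GFP (horizontal axis) for each tested gene of the markers and of 7 related lists, 1 point a gene, coloured by call, with the median as a line and Fgfr4 drawn as a triangle at its bound. The satellite cell genes lie mostly below 0 (12 of 14 called lower), while the fibro-adipogenic genes lie on both sides.

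Relatives of Vcam1 and Ncam1 among the immunoglobulin-family adhesion genes moved apart. Of 14 listed, 7 were tested, 3 higher and 4 lower (median log2 fold change -0.14). Alcam fell 3.36-fold from 137 ± 3.52 to 40.9 ± 4.74 CPM, whereas L1cam, a neural adhesion gene, rose 7.68-fold from 2.51 ± 0.362 to 19.3 ± 0.957 CPM (SD, n = 3; adjusted p = 5.32e-19 and 8.89e-16 by edgeR). Cadm3 rose 3.43-fold, Mcam, which also marks mural cells, rose 2.24-fold, and Jam2 fell 1.71-fold (edgeR adjusted p = 5.83e-12, 2.09e-04 and 2.22e-10). Ncam2, Chl1, Nrcam, Icam1, Icam2, Madcam1 and Cntn1 were not tested.

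Further antigens used to sort stromal cells changed in both directions as well. Of 13 listed, 11 were tested, with 4 higher, 6 lower, 1 not called and a median log2 fold change of -0.10. Nt5e, which encodes CD73, an enzyme that makes adenosine and a standard marker of mesenchymal stromal cells, rose from 3.92, 3.98 and 5.01 CPM to 40.3, 39.1 and 37.4 CPM. Each ChREBP-beta library exceeded every GFP library several times over, and the rise of 9.05-fold (edgeR adjusted p = 4.70e-19) was larger than that of any of the 9 tested markers. Cd9, a tetraspanin, rose 1.40-fold (edgeR adjusted p = 8.50e-14). Cd24a, Anpep and Itga5 fell 2.50-fold, 1.66-fold and 1.21-fold (edgeR adjusted p = 3.39e-12, 2.15e-13 and 1.31e-07). Ngfr and Lepr were not tested.

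Genes of other cell types were read at differing levels, and those of endothelial cells were low. Of 6 endothelial genes 4 were tested, and edgeR called 0, also at an unadjusted p under 0.05, as did DESeq2 and limma-voom. Cdh5 and Pecam1, the most abundant, were at 2.23 CPM or less, and the list summed to 0.784 CPM in GFP replicate 1, 4.70 and 5.23 CPM in GFP replicates 2 and 3 and 3.06 to 6.91 CPM with ChREBP-beta. Of 6 haematopoietic genes 4 were tested, with 0 called by edgeR (0 at an unadjusted p under 0.05), 0 by DESeq2 and 1 by limma-voom. They had sums of 14.96 to 31.3 CPM with GFP and 26.2 to 31.4 CPM with ChREBP-beta, carried mostly by Lyz2 and Cd14. Ptprc, which encodes the pan-leukocyte antigen CD45, was at 0.809 CPM or less. Of the tendon genes, Scx was not called at 25.6 to 28.5 CPM and Mkx fell from 12.9 to 14.2 CPM with GFP to 1.56 to 2.60 CPM with ChREBP-beta (2 of 4 tested). Of 4 mesothelial genes 1 was tested and not called by edgeR, DESeq2 or limma-voom, Msln, at 28.6 to 36.0 CPM. Of the 6 tested lung genes edgeR called 1, Ager, as higher (adjusted p = 0.0453), DESeq2 called 0 and limma-voom 6. Of the 5 tested liver genes the counts were 0, 0 and 5, and of the 3 tested red blood cell genes 0, 0 and 2, with 0 at an unadjusted p under 0.05 by edgeR in both lists. The calls for RNA of these tissues thus depend on the tool. Lung genes summed to 0.837, 137 and 95.5 CPM in GFP replicates 1 to 3 and to 72.7 to 93.7 CPM with ChREBP-beta. Liver genes summed to 0.209, 0.0553 and 23.8 CPM in GFP replicates 1 to 3 and to 14.5 to 20.1 CPM with ChREBP-beta. In both lists the GFP libraries thus lay on both sides of the ChREBP-beta libraries. With the summed level of the lung, liver and red blood cell lists as a covariate, edgeR called 6 markers higher and 3 lower. That sum was 4.39 CPM in GFP replicate 1 and 92.7 to 146 CPM in the other libraries, so it mostly sets GFP replicate 1 apart. It cannot adjust for liver RNA alone, since GFP replicate 2 had the highest sum and 0.0553 CPM of liver genes.

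For the 3 markers that changed at least 2-fold, the genes with the most similar pattern over the 6 libraries were found by the Euclidean distance between log2 levels centred on each gene's mean. Nearest to Ncam1 were Cpq, at a distance of 0.138, and Cdon, at 0.166, the latter encoding a surface protein of the immunoglobulin family that binds hedgehog ligands. Cdon fell from a mean of 112 to 50.2 CPM. Nearest to Dpt were Mapk10 (0.370) and Cnr1 (0.404), both rare, and nearest to Pi16 were Zswim6 (0.228) and Tmem41a (0.238). With libraries in 2 groups, such distances reflect mostly the difference between the groups.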

How the data were processed

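The deposited file holds estimated counts per gene symbol for 6 libraries, which the authors did not normalize, and 7.74% of the values are not whole. The submitters' processing notes list TopHat2 2.0.0, Bowtie2 2.0.0.5 and fastp. They name GRCg6a, which is a chicken assembly, while the gene symbols are those of mouse. Counting tool, annotation and strand setting are not given in the sources used, so antisense overlaps (up to 4.81% of the exon length of Ncam1) cannot be told apart. Rows of the 24 repeated symbols were summed and counts rounded. The test was that of edgeR 4.0.16 under R 4.3.3 (filterByExpr minimum count 10, TMM, glmQLFTest, two-sided, Benjamini-Hochberg over 12166 genes, calls at 0.05). CPM are scaled by the TMM factors. Standard errors are the log2 fold change over the square root of F. Intervals are at 95%. Floors of 3 counts cover counting error only. Positions and transcript lengths (longest principal transcript) come from the GENCODE M21 annotation of GRCm38 by symbol.

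The markers, lists and naming rule were chosen with earlier results of these data known. Named are the 10 markers, from each list the up to 5 tested members of lowest adjusted p, members not tested, up to 2 of each cell type list with the highest CPM, and the 2 nearest genes in pattern. Other genes named were chosen after their values were seen. Lists carry counts and medians, with no test of the list. Libraries of a group differed by more than sampling noise (chi-square per degree of freedom 2.15 to 3.93). Counts were also simulated for this comparison (12065 genes), with 48 to 50 changed genes tested at each fold. The share of changed genes recovered was 70.0% for 1.25-fold and for 1.5-fold, 90.0% for 2-fold and 95.8% for 4-fold changes, and 7 of 168 calls were false. The data themselves gave 7145 calls, far more than were simulated, so these shares need not carry over. The alternatives tried were 3 other scalings (library size, RLE, upper quartile), no filter, a filter at a mean of 5 CPM, limma-voom (limma 3.58.1), DESeq2 1.42.0, a replicate block, each library left out, and RNA of other tissues as a covariate.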

Additional observations from a re-analysis of the deposited data

How the results depend on the processing

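The 9 tested markers kept their direction under all 15 alternatives (14 for Dpt and Pi16, which a mean CPM of at least 5 removes). All kept their call too, except Cd44 under library-size scaling (log2 fold change 0.05, edgeR adjusted p = 0.116). Log2 fold changes ranged from 1.84 to 2.53 for Dpt, from 1.59 to 2.02 for Pi16 and from -1.22 to -1.10 for Ncam1. With a mean CPM of at least 5, which tests fewer genes, 8 of the other satellite cell genes were called in place of 13, and 3 of the Ly6 and uPAR family in place of 6. With RNA of other tissues as a covariate, which mostly sets GFP replicate 1 apart, 6 markers were higher and 3 lower. With the replicate block, 6902 genes were called in all in place of 7145, and 6 markers were higher and 3 lower. The deviations of libraries with the same number correlated at -0.011, 0.015 and -0.103, so the values show no pairing by number. No GFP library correlated best with the ChREBP-beta library of its own number. Whether samples of the same number were prepared together cannot be read from these correlations. Depth limits Thy1, Pi16 and Dpt, with 0 to 94 counts per library.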
